A study of Mus musculus with 12 samples.

Results

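The interferon-stimulated genes are a set of 38 named genes that cells switch on when they sense interferon, taken from the deposited table by gene symbol. Of these, 36 were found among the 17379 genes of the table, and all 36 passed the filter on low counts, while Mx1 and Mx2 were not analysed here. They were sorted by role into 4 nucleic acid sensors, 3 transcription factors, 5 genes of the oligoadenylate synthetase (OAS) family, 3 IFIT genes, 7 other antiviral effectors, 6 genes of ubiquitin-like and ADP-ribose modification, 6 guanylate-binding or immunity-related GTPases and 2 genes of secreted proteins.

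Heart mRNA was sequenced in 12 libraries from mice aged 6 months, 3 in each of 4 groups. Compound mice carried a 25 bp deletion in MYBPC3 on both alleles and 1 allele of the HRC variant S96A, and all 3 were female. HRC variant mice carried S96A on 1 allele, and all 3 were female. Mice of the MYBPC3 deletion group were homozygous for the 25 bp deletion, and replicates 1 and 2 were male and replicate 3 female. Nontransgenic mice were wild type on the C57BL background that all groups share, again with replicates 1 and 2 male and replicate 3 female. Cardiac myosin-binding protein C, the product of MYBPC3, is a part of the thick filament, and HRC is a calcium-binding protein of the sarcoplasmic reticulum. The labels do not say how the alleles were built, what drives them, or which part of the heart was taken. Nothing but the numbering of the samples marks replicates as different animals, and a p-value here reflects only how far these samples vary. Since the samples are bulk heart RNA, fewer cells of a type and less RNA per cell cannot be told apart.

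Type I interferons bind the receptor Ifnar1 and Ifnar2, whose kinases Jak1 and Tyk2 activate Stat2 among others. Stat2 joins Irf9 in a complex that binds the interferon-stimulated response element (ISRE), found before many genes of the set. Interferon gamma, made mainly by T cells and NK cells, acts through Ifngr1 and Ifngr2 and on genes with the gamma-activated site (GAS), and the GTPases of the set are known as strong targets of it. In the heart many of these genes are expressed at a low level without infection, in muscle, endothelium and macrophages.

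RefSeq promoters of the build GRCm38.p6 were available for 27 of the genes, as 30 promoters. An ISRE core, the letters TTTC, NN and TTTC in a row on either strand, stood in the 250 bases before the start in 14 of the 30 promoters (46.7%), against 2.98% of all 32851 promoters of the table. A GAS, TTCNNNGAA, stood in 5 of the 30 (16.7%), against 7.02% of all promoters. A match describes these letters and is not a binding site. The 140 bases before the start are printed for 6 genes with an ISRE core, 3 GTPases and 3 antiviral genes of other roles. The bases run 5′ to 3′ along the gene, with matches to either motif in capitals.

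The GTPase promoters of Igtp and Gbp7 held both motifs, and that of Gbp2 an ISRE core alone.
Igtp (chr11:58199416-58199555, + strand): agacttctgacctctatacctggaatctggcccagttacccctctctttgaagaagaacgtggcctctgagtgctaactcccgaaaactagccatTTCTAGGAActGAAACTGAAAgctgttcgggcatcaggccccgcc
Gbp7 (chr3:142530196-142530335, + strand): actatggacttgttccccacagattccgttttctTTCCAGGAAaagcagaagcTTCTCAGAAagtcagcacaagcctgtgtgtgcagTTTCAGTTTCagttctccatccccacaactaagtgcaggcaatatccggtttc
Gbp2 (chr3:142620523-142620662, + strand): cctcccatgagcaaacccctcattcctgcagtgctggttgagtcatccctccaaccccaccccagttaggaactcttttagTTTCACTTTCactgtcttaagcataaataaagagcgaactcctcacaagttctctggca

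In the promoters of Isg15, Ifit1 and Oas3 no GAS was found, and the ISRE cores of Isg15 overlapped one another.
Isg15 (chr4:156200819-156200958, - strand): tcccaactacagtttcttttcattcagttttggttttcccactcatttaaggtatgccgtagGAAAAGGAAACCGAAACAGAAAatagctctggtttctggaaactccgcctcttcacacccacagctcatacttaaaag
Ifit1 (chr19:34640749-34640888, + strand): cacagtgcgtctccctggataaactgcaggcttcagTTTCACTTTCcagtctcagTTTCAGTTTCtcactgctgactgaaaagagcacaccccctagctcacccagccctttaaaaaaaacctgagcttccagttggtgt
Oas3 (chr5:120777660-120777799, - strand): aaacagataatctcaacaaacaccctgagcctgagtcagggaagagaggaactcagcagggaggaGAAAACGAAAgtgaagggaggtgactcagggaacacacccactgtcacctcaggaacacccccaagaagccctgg

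In Igtp the ISRE core began 34 bases before the start and the GAS 45 bases before it. Gbp7 had its ISRE core at 53 bases and GAS matches at 87 and 106 bases, and Gbp2 its ISRE core at 59 bases. Isg15 held 3 ISRE cores, at 66, 72 and 78 bases, Ifit1 held them at 85 and 104 bases, and Oas3 at 75 bases. All 6 genes were printed from those with an ISRE core, so its presence here does not compare both kinds of promoter. The matches lay within 106 bases of the start in these 6 genes.

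Total counts ran from 15615189 to 20581196 per library, no 2 libraries were identical, and replicates of a group differed by far more than counting noise (chi-square per degree of freedom 10.5 to 79.9). The 6 cardiomyocyte markers (Myh6, Tnnt2, Tnni3, Actc1, Mb and Pln) summed to 68187.0 to 97539.4 CPM, counts scaled to library size, over the libraries, so each carries the defining markers of heart muscle. Mybpc3 was measured at 3532.0 to 3923.2 CPM in compound hearts, 2896.6 to 3847.8 in HRC variant hearts, 2463.8 to 2918.1 in MYBPC3 deletion hearts and 3520.6 to 4885.0 in nontransgenic hearts, which does not show whether a deletion of 25 bp is present. Hrc stood at 1155.8 to 1228.9 CPM in compound hearts and 938.6 to 1375.2 CPM in nontransgenic hearts. The 6 atrial markers summed to 143.2 to 432.8 CPM in compound hearts, 199.0 to 8774.6 in HRC variant hearts, 3517.0 to 6259.7 in MYBPC3 deletion hearts and 3483.8 to 8931.5 in nontransgenic hearts, and the part of this gap in the results was not tested.

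All 36 genes were expressed, most of them modestly. On the authors' TPM scale, a level per transcript length, the median of their mean levels was 8.26 TPM, against 10.7 TPM over all tested genes. Lgals3bp, a secreted glycoprotein that binds galectins, had the highest mean level at 64.7 TPM. Bst2, also called tetherin, which holds budding virus at the cell surface, followed at 43.9 TPM, and Iigp1, a GTPase that attacks the vacuoles of parasites, at 40.7 TPM. The lowest levels were those of Oas3 at 0.787 TPM and of Cxcl10, a chemokine that attracts T cells, at 0.822 TPM. Cxcl10 had only 1 to 23 counts per library, so its differences carry little weight. Within a gene, the highest library stood above the lowest by 1.39-fold for Ifih1 and by 23.3-fold for Cxcl10, with a median of 2.38-fold on TMM-scaled CPM, the scale of all per-library values below. The genes lay on 14 chromosomes, with 7 on chromosome 11, 6 on chromosome 5 and 4 each on chromosomes 3 and 16. Counts that were not whole numbers, a sign of reads shared with another gene, occurred for Oas1a, Oas3, Ifit1, Ifit3, Xaf1, Dtx3l and Igtp, whose values are uncertain for that reason. The annotated ends of Dtx3l and Parp9 overlap, and the sources used here do not give whether counting used strand.

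**Figure D1:**
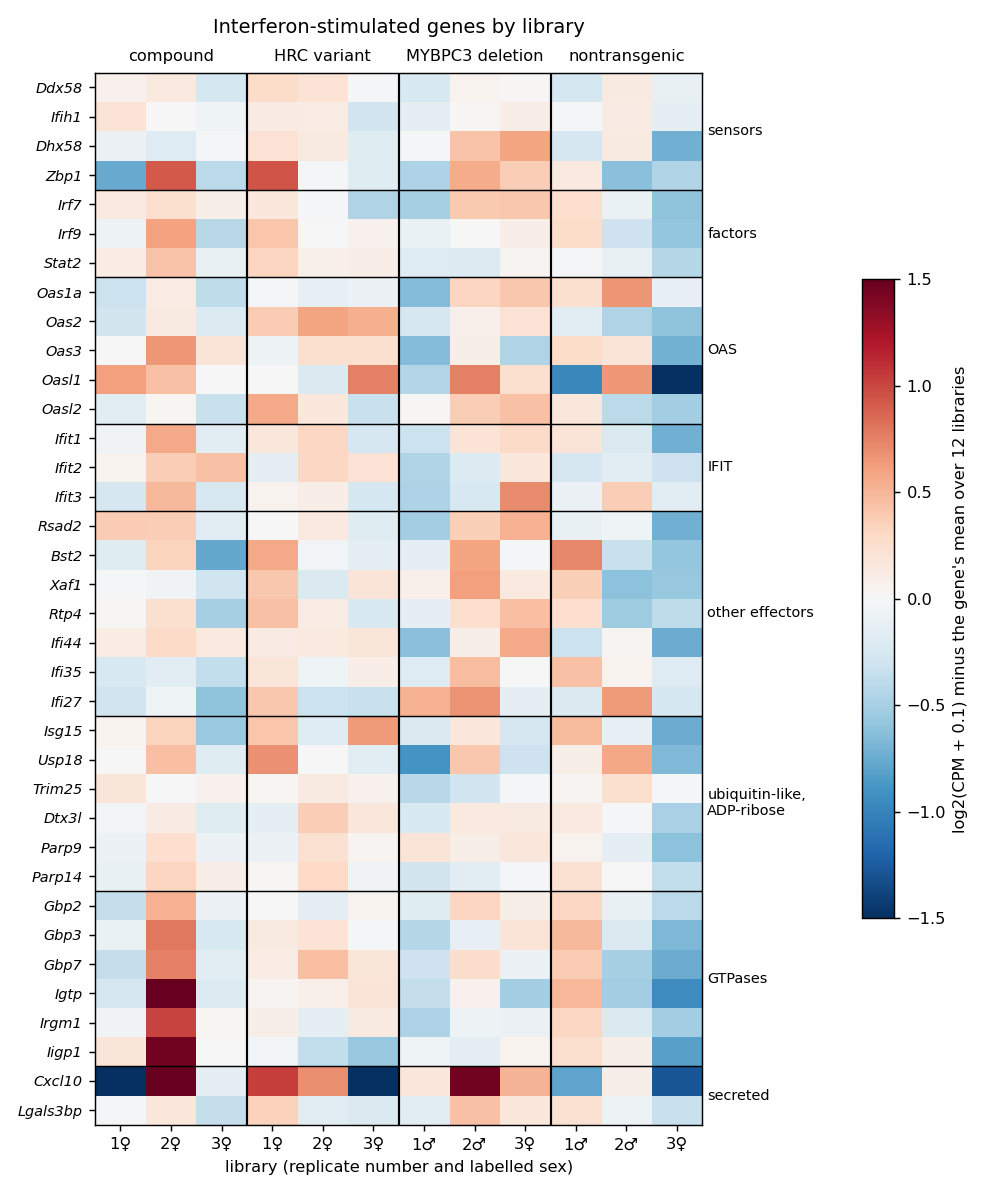
Each row is 1 of the 36 interferon-stimulated genes, each column 1 library, and colour gives log2(CPM + 0.1) minus the gene's mean over the 12 libraries, with colours ending at 1.5 in either direction. Nontransgenic replicate 3 is blue in nearly every row, and compound replicate 2 is red in all 6 GTPase rows.

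A pair of libraries stood apart in these genes. Nontransgenic replicate 3, the only female of its group, was the lowest of the 12 libraries for 21 of the 36 genes, against 7.82% of all tested genes. It was the lowest within its group for 32 of the 36, against 29.8% of all tested genes. Its CPM divided by the median of the other libraries ran from 0.201 to 0.963 over the 36 genes with a median of 0.659, while the median over all tested genes was 1.0. Compound replicate 2 was the highest library for 13 of the 36 genes, against 4.21% of all tested genes, and the highest of its group for 29 of the 36, against 34.1%. Its ratio to the median of the other libraries had a median of 1.99 over the 6 GTPases (1.53 to 4.37) and of 1.21 over the other 30 genes. MYBPC3 deletion replicate 1, a male, was the lowest of its group for 30 of the 36 genes, against 22.1% of all tested genes.

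Markers of immune cells moved with the first of these libraries in part. In nontransgenic replicate 3 the mean log2 deviation from the mean of all libraries was -0.56 over the 36 genes, -0.42 over 8 macrophage markers, -1.14 over the 3 tested monocyte markers and -1.67 over the 3 tested neutrophil markers. Single markers differed within these lists. Divided by the median of the other libraries, macrophage markers ran from 0.329 for Cx3cr1 and 0.451 for Fcgr1 to 0.924 for Mrc1 and 1.02 for Csf1r. Of the tested neutrophil markers, S100a8 was at 0, S100a9 at 0.0487 and Csf3r at 1.17 CPM in that library. Its summed macrophage markers were 252.8 CPM, against 214.9 to 251.5 CPM in compound, 212.2 to 401.3 in HRC variant, 300.3 to 383.5 in MYBPC3 deletion and 252.8 to 331.7 in nontransgenic hearts, so all compound libraries were lower. Its plasmacytoid dendritic cell markers, at 4.63 CPM, stood above the 1.05 to 2.18 CPM of compound and the 2.46 to 2.72 CPM of HRC variant hearts. That sum was mostly Pacsin1, at 4.14 CPM, with Siglech at 0.39, Ly6d at 0.0974 and Ccr9 at 0. The mean log2 deviation of the 3 tested markers of this cell type was -0.21. In nontransgenic replicate 3 the monocyte markers, at 1.22 CPM, and NK cell markers, at 0.39 CPM, were the lowest of the 12. Cd3d, Ncr1, Nkg7, Retnlg, S100a8, Ccr9, Cd209a and Flt3 were at 0 counts there, but such zeros were common: 2 of 8 T cell, 5 of 5 NK cell, 2 of 5 neutrophil, 3 of 4 plasmacytoid dendritic cell and 4 of 5 dendritic cell markers were at 0 in at least 1 of the 12 libraries. Endothelial markers deviated by 0.01 and cardiomyocyte markers by -0.07 in that library. In compound replicate 2 the deviation was 0.43 over the 36 genes, -0.02 over macrophage markers and -0.41 over 5 T cell markers, and its summed NK cell markers reached 2.36 CPM, the top of all libraries, from few counts. The part of these cells in the results was not tested.

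**Figure D2:**
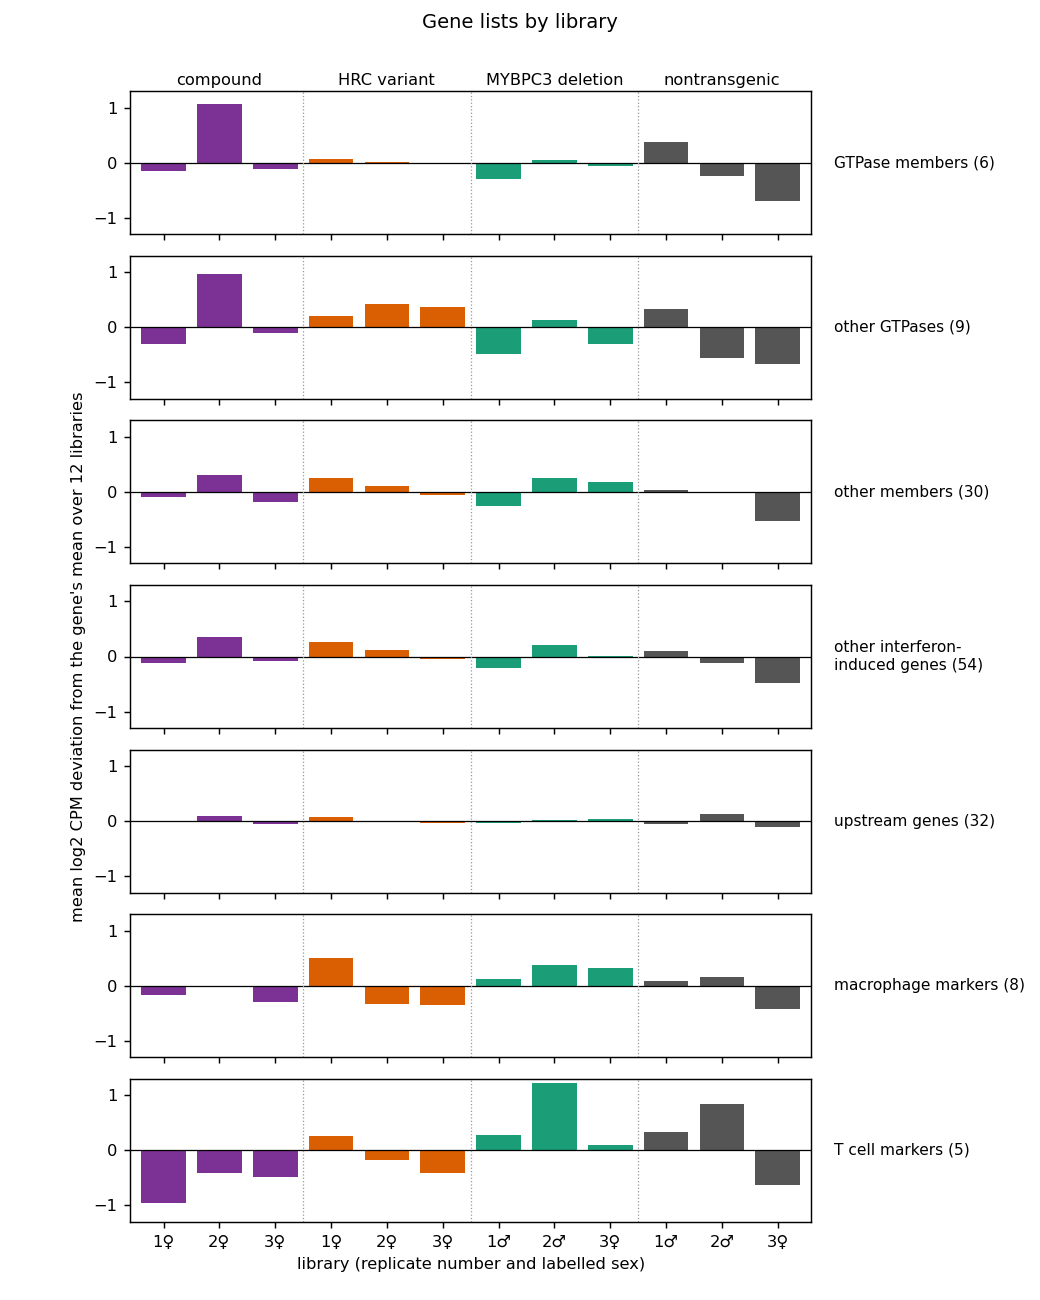
Bars give, for each of the 12 libraries, the mean over a gene list of the log2 CPM deviation from each gene's mean over all libraries. The GTPase genes reach 1.07 in compound replicate 2, the other 30 genes 0.30 there, and both lie below 0 in nontransgenic replicate 3. Macrophage and T cell markers are at -0.42 and -0.63 in nontransgenic replicate 3, but T cell markers are lower in compound replicate 1, at -0.95.

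Set against nontransgenic hearts, most of the genes were higher by sign in each mutant group, by amounts that no test called and that single libraries moved. In compound hearts 32 of the 36 fitted log2 differences were above 0, with a median of 0.37, while 49.7% of all tested genes were above 0. In HRC variant hearts 33 of 36 were above 0, with a median of 0.36, beside 50.7% of all tested genes. In MYBPC3 deletion hearts 27 of 36 were above 0, with a median of 0.16, beside 49.2% of all tested genes. The 3 comparisons share the nontransgenic libraries, so they are not independent of each other. Without nontransgenic replicate 3 the medians were -0.07 for compound hearts (14 of 36 above 0), -0.03 for HRC variant hearts (18 of 36) and -0.06 for MYBPC3 deletion hearts (13 of 36). In that fit no nontransgenic female is left, so the sex term rests on the MYBPC3 deletion group alone, also for single genes below. Dropping the sex term too was chosen after seeing the data. The medians were then 0.06 in compound (22 of 36 above 0) and 0.09 in HRC variant hearts (20 of 36). In MYBPC3 deletion hearts 17 of 36 were then above 0. Without MYBPC3 deletion replicate 3, which leaves nontransgenic replicate 3 as the only female of a group with both sexes, the medians were 0.60 in compound (33 of 36 above 0), 0.70 in HRC variant (36 of 36) and -0.06 in MYBPC3 deletion hearts (13 of 36). Without compound replicate 2 the compound median was 0.18 (27 of 36). The MYBPC3 deletion median was 0.34 without nontransgenic replicate 1, 0.30 without MYBPC3 deletion replicate 1 and 0.10 without MYBPC3 deletion replicate 2. With the female libraries alone, where that replicate is the only nontransgenic heart, the medians were 0.60 in compound, 0.70 in HRC variant and 0.65 in MYBPC3 deletion hearts.

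By edgeR's quasi-likelihood test 0 of the 36 genes passed an adjusted p of 0.05 in any of these comparisons, and 0% of the 13849 tested genes did. In compound hearts 0 of 36 had an unadjusted edgeR p under 0.05, against 6.36% of all tested genes, and the lowest adjusted p was 0.787. In HRC variant hearts 2 of 36 did, against 6.23%, and the lowest adjusted edgeR p was 0.605. In MYBPC3 deletion hearts 3 of 36 did, against 8.16%, and the lowest adjusted edgeR p was 0.548. DESeq2 called 0 of the 36 in compound and HRC variant hearts, and 0 of the 27 that had an adjusted p in MYBPC3 deletion hearts, while it called 0.274%, 0.181% and 0.664% of all tested genes. These shares of the 36 genes do not stand out from the background. The standard error of a difference had a median over the 36 genes of 0.34 log2 units in compound, 0.34 in HRC variant and 0.27 in MYBPC3 deletion hearts.

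**Figure D3:**
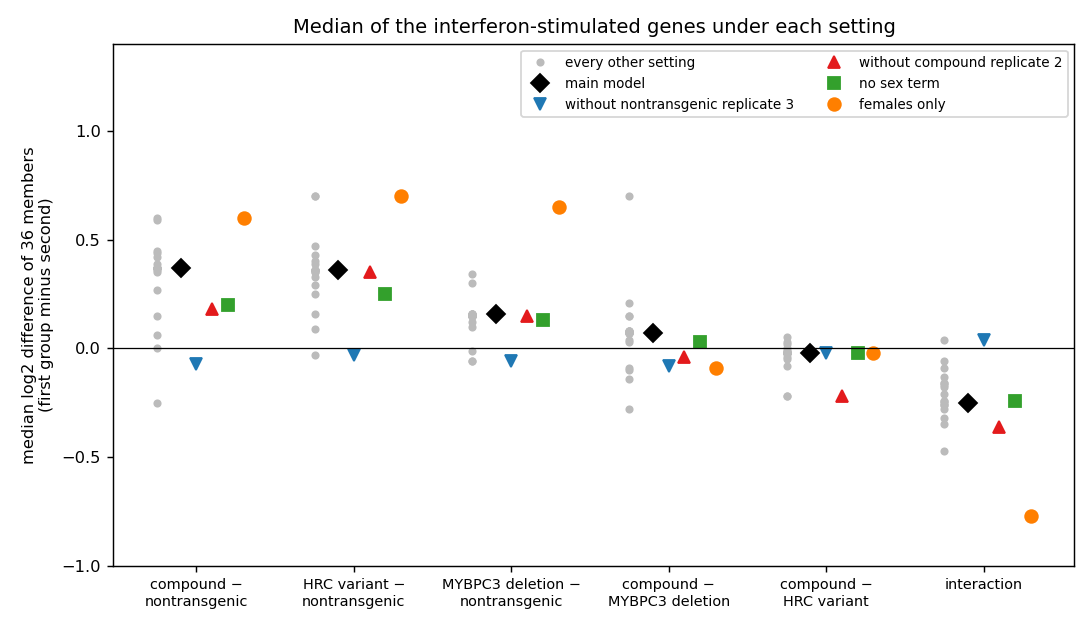
Points give the median log2 difference over the 36 genes in 6 contrasts (first group minus second, and the interaction), with the model used for the text as black diamonds and each alternative as another point. In all 3 contrasts with nontransgenic hearts the black diamond lies above 0, at 0.37, 0.36 and 0.16, and the triangle without nontransgenic replicate 3 lies below 0. In the fit without that library the sex term rests on the MYBPC3 deletion group alone.

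The sensors of viral nucleic acid overlapped between groups. Ddx58 (RIG-I) and Ifih1 (MDA5) recognise double-stranded RNA in the cytosol, Dhx58 (LGP2) tunes both, and Zbp1 binds Z-form nucleic acids and can start cell death. Ddx58, the sensor with the highest level per length, had 21.6, 22.9 and 17.3 CPM in compound replicates 1, 2 and 3, 25.1, 23.9 and 20.3 in HRC variant hearts, 17.7, 21.4 and 20.9 in MYBPC3 deletion hearts and 17.3, 22.8 and 19.1 in nontransgenic hearts. The 4 groups overlapped, and the fitted log2 difference from nontransgenic hearts was 0.05 (SE 0.20) in compound hearts and 0.22 (SE 0.20) in HRC variant hearts. Over the 4 sensors the median difference from nontransgenic hearts was 0.15 in compound, 0.31 in HRC variant and 0.27 in MYBPC3 deletion hearts, with all 4 above 0 in each and none called. Zbp1, at 21 to 81 counts per library, spread most widely of them, 3.45-fold from its lowest to its highest library.

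Among the transcription factors, Irf9, the DNA-binding subunit of the interferon-activated complex, had 22.6, 36.4 and 17.9 CPM in compound hearts, 31.9, 23.8 and 24.9 in HRC variant hearts, 22.3, 24.0 and 25.6 in MYBPC3 deletion hearts and 29.0, 19.2 and 15.9 in nontransgenic hearts. Compound replicate 2 was the highest and nontransgenic replicate 3 the lowest of the 12. Stat2, its partner, showed the same extremes, with 27.7 CPM in compound replicate 2 and 15.3 CPM in nontransgenic replicate 3. All 3 HRC variant libraries, at 21.7 to 25.8 CPM, lay above the nontransgenic libraries, at 15.3 to 20.1 CPM, for Stat2, yet the log2 difference of 0.39 (SE 0.21) was not called. Irf7, which drives the genes of interferon itself, gave 0.36 (SE 0.34) in compound, 0.11 (SE 0.33) in HRC variant and 0.29 (SE 0.26) in MYBPC3 deletion hearts against nontransgenic hearts.

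In the OAS family, Oas2 was separate in the HRC variant hearts. OAS enzymes make oligoadenylates on double-stranded RNA, which activate the nuclease RNase L. Oas2 (chr5:120730129-120749874) had 6.75, 8.98 and 7.10 CPM in compound hearts, 10.7, 12.4 and 11.9 CPM in HRC variant hearts, 6.88, 8.63 and 9.57 CPM in MYBPC3 deletion hearts and 7.33, 5.96 and 5.36 CPM in nontransgenic hearts. Its 3 HRC variant libraries lay above the 9 others, at a mean of 11.7 ± 0.886 CPM against 6.21 ± 1.01 CPM in nontransgenic hearts (SD, n = 3 each). It was the 1 gene of the 36 with this order, which 0.599% of all tested genes showed. The log2 difference of HRC variant from nontransgenic hearts was 0.90 (SE 0.26), with an unadjusted edgeR p of 0.0037 and an adjusted edgeR p of 0.605, and 0.52 without nontransgenic replicate 3. DESeq2 gave an adjusted p of 0.158 for it, the lowest that any of the 36 genes reached by edgeR or DESeq2 under the alternatives run. Compound hearts were lower than HRC variant hearts by sign, at -0.62 (SE 0.20) with an adjusted edgeR p of 0.667, and their 3 libraries all lay below those of the HRC variant. The interaction, the compound difference less both single differences, was -1.05 (SE 0.29) with an adjusted edgeR p of 0.508. In MYBPC3 deletion hearts Oas2 differed from nontransgenic hearts by 0.43 (SE 0.20), with an adjusted edgeR p of 0.621, and by 0.23 without nontransgenic replicate 3.

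The other genes of the family, all on chromosome 5, did not share this order. Oasl2, an OAS-like protein and the family's most abundant member at 14.2 TPM, had 16.9, 19.3 and 15 CPM in compound hearts, 28.0, 21 and 14.9 in HRC variant hearts, 19.1, 24.3 and 25.7 in MYBPC3 deletion hearts and 21.3, 14.2 and 13.1 in nontransgenic hearts. The HRC variant libraries thus spanned nearly the whole range of Oasl2. Its log2 difference was 0.52 (SE 0.24) for MYBPC3 deletion against nontransgenic hearts, with an adjusted edgeR p of 0.607, and the interaction was -0.84 (SE 0.34), with an adjusted edgeR p of 0.563. Without nontransgenic replicate 3 the MYBPC3 deletion difference was 0.30. Oasl1, which in mice restrains the translation of Irf7, had 2.87, 2.53 and 1.85 CPM in compound hearts, 1.83, 1.57 and 3.16 in HRC variant hearts, 1.33, 3.17 and 2.18 in MYBPC3 deletion hearts and 0.893, 2.93 and 0.438 in nontransgenic hearts. Nontransgenic replicate 2 sat among the mutant libraries, so the difference of 1.5 (SE 0.76, adjusted edgeR p 0.81) in compound hearts rested on the others and was 0.40 without nontransgenic replicate 3.

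Oas3 had 2.16, 3.42 and 2.46 CPM in compound hearts, 2.03, 2.56 and 2.55 in HRC variant hearts, 1.33, 2.28 and 1.54 in MYBPC3 deletion hearts and 2.62, 2.47 and 1.27 in nontransgenic hearts. Compound and MYBPC3 deletion libraries overlapped, and their fitted difference of 1.04 (SE 0.44) had an adjusted edgeR p of 0.862. This fit adjusts for sex, and 2 of the 3 MYBPC3 deletion hearts were male while all compound hearts were female. Oas1a, the remaining member, was lower than in nontransgenic hearts by sign in each mutant group, at -0.47 (SE 0.41), -0.36 (SE 0.41) and -0.19 (SE 0.32) in compound, HRC variant and MYBPC3 deletion hearts.

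Among the IFIT proteins, Ifit1 binds viral RNA whose cap lacks methylation. Ifit3, the most abundant of them, had 12.9, 21.7 and 13.1 CPM in compound hearts, 16.0, 16.5 and 12.8 in HRC variant hearts, 11.2, 13.1 and 25.2 in MYBPC3 deletion hearts and 14.5, 19.9 and 13.8 in nontransgenic hearts. Each group but the HRC variant held 1 library of 19.9 CPM or more, and the compound difference from nontransgenic hearts was -0.32 (SE 0.36). Ifit2 showed a different order, with compound libraries at 15.2 to 19.9 CPM and HRC variant libraries at 13.2 to 18.2 CPM, all above the nontransgenic libraries at 11.8 to 13.0 CPM. Its differences of 0.40 (SE 0.23) in compound hearts and 0.24 (SE 0.23) in HRC variant hearts were not called. Ifit1 gave 0.49 (SE 0.36), 0.42 (SE 0.36) and 0.31 (SE 0.29) for compound, HRC variant and MYBPC3 deletion hearts against nontransgenic hearts.

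Among the other antiviral effectors, Bst2 had 15.9, 22.9 and 10.6 CPM in compound hearts, 26.9, 17.6 and 16.5 in HRC variant hearts, 16.3, 27.4 and 17.7 in MYBPC3 deletion hearts and 29.8, 14.4 and 12.1 in nontransgenic hearts. The groups overlapped throughout for this gene. Xaf1, which binds the apoptosis inhibitor XIAP, had 8.07, 7.91 and 6.65 CPM in compound hearts, 10.9, 7.06 and 9.43 in HRC variant hearts, 8.65, 12.7 and 9.14 in MYBPC3 deletion hearts and 10.6, 5.34 and 5.5 in nontransgenic hearts. Its HRC variant difference from nontransgenic hearts was 0.62 (SE 0.33), with an adjusted edgeR p of 0.847, although nontransgenic replicate 1 lay above 2 of the 3 HRC variant libraries. All compound libraries lay below the MYBPC3 deletion libraries for Xaf1, with a difference of -0.18 (SE 0.32) once sex was in the model. Rsad2 (viperin, an enzyme that blocks viral RNA synthesis), Rtp4, Ifi44, Ifi35 and Ifi27 had differences from nontransgenic hearts of -0.15 for Ifi35 to 0.49 for Rsad2 in compound hearts, and none was called. Ifi44 was narrow in compound hearts, at 5.03 to 5.67 CPM, and in HRC variant hearts, at 5.05 to 5.27 CPM, both above the 2.73 to 4.78 CPM of nontransgenic hearts, and MYBPC3 deletion hearts covered 2.97 to 6.91 CPM.

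The genes of ubiquitin-like and ADP-ribose modification differed in which group stood out. Parp9, which forms a complex with the ubiquitin ligase Dtx3l, had 17.6, 22.4 and 17.6 CPM in compound hearts, 17.7, 22.1 and 19.4 in HRC variant hearts, 21.4, 19.9 and 21.2 in MYBPC3 deletion hearts and 19.5, 17.0 and 12.2 in nontransgenic hearts. Only the MYBPC3 deletion libraries all lay above the nontransgenic ones. Its differences from nontransgenic hearts were 0.44 (SE 0.21), 0.47 (SE 0.21) and 0.38 (SE 0.17) in compound, HRC variant and MYBPC3 deletion hearts, with adjusted edgeR p of 0.787, 0.772 and 0.586. Without nontransgenic replicate 3 they were 0.05, 0.09 and 0.18.

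Trim25 was the 1 gene of the 36 whose MYBPC3 deletion libraries all lay below the 9 others, an order that 1.34% of all tested genes showed. Trim25 (chr11:88999398-89020293), a ubiquitin ligase that acts on RIG-I, had 31.8, 27.9 and 29.4 CPM in compound hearts, 28.5, 30.8 and 29.3 in HRC variant hearts, 21, 23.0 and 27.4 in MYBPC3 deletion hearts and 28.8, 33.2 and 27.8 in nontransgenic hearts. The gap between the female of the MYBPC3 deletion group, at 27.4 CPM, and the female nontransgenic library, at 27.8 CPM, was small. The log2 difference of MYBPC3 deletion from nontransgenic hearts was -0.34 (SE 0.13), with an adjusted edgeR p of 0.548, and -0.01 in the female libraries alone. In compound hearts, which carry the same deletion, it was -0.07 (SE 0.16) against nontransgenic hearts.

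Isg15, the ubiquitin-like protein that is joined to other proteins under interferon, had 3.37, 4.10 and 2.18 CPM in compound hearts, 4.35, 2.83 and 5.10 in HRC variant hearts, 2.78, 3.62 and 2.71 in MYBPC3 deletion hearts and 4.53, 2.98 and 1.90 in nontransgenic hearts. These groups overlapped, and the HRC variant difference of 0.83 (SE 0.44) had an adjusted edgeR p of 0.844 and was 0.37 without nontransgenic replicate 3. Usp18, which removes Isg15 and damps the type I receptor, gave 0.50 (SE 0.50) in compound and 0.61 (SE 0.50) in HRC variant hearts against nontransgenic hearts. Parp14, a large ADP-ribosyltransferase, gave 0.25 (SE 0.21) and 0.23 (SE 0.21) in the same comparisons.

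**Figure D4:**
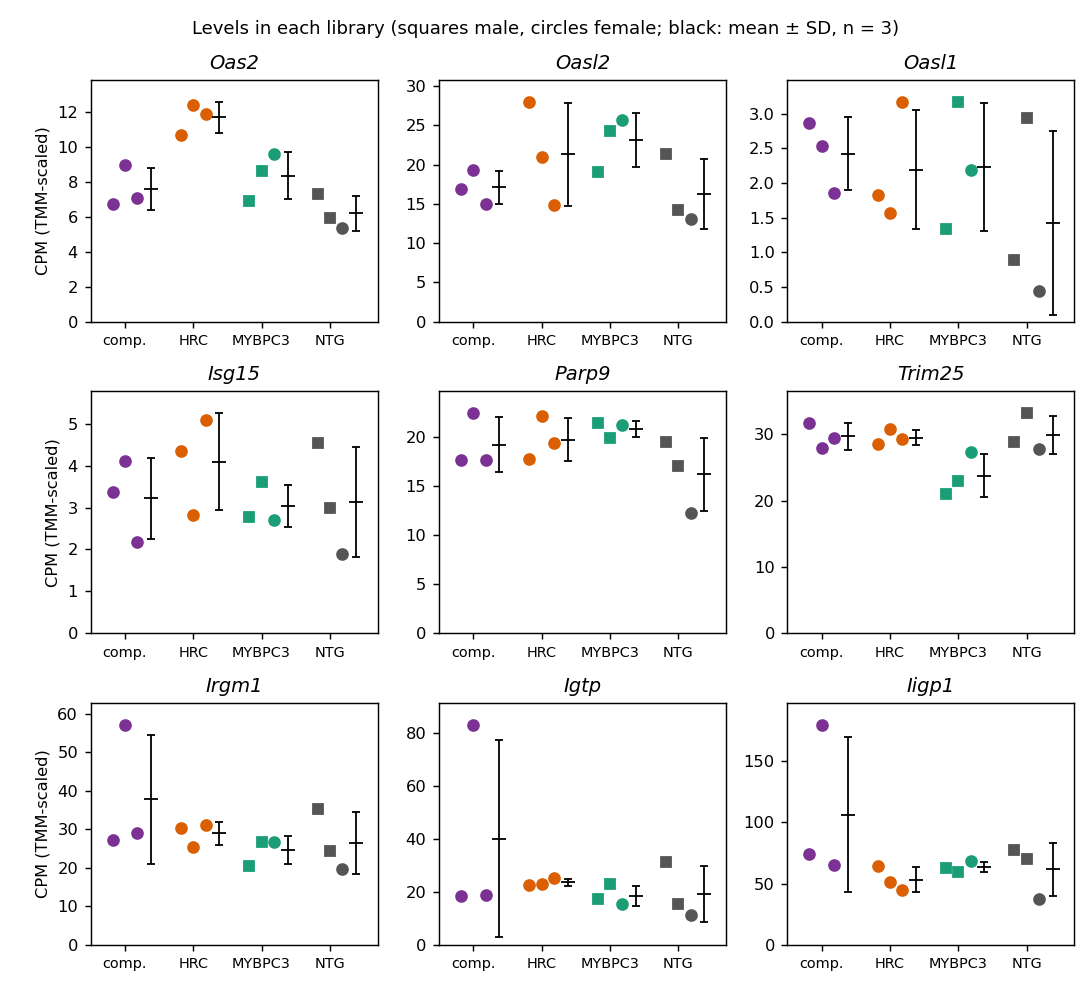
CPM of 9 of the genes in each library, with the groups from left to right as compound, HRC variant (HRC), MYBPC3 deletion (MYBPC3) and nontransgenic (NTG) hearts, and black marks for the mean ± SD of 3 libraries. Oas2 is separate in the HRC variant, Trim25 is low in the MYBPC3 deletion, and 1 compound library stands alone in Irgm1, Igtp and Iigp1.

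Over the roles with 3 or more genes, the GTPases had the highest median difference of compound from nontransgenic hearts, and compound replicate 2 was the highest of the 12 libraries for all 6 of them. Guanylate-binding proteins (Gbp2, Gbp3, Gbp7) and immunity-related GTPases (Igtp, Irgm1, Iigp1) gather on the vacuoles of intracellular microbes, and Irgm1 and Igtp keep the others from host membranes. Igtp (chr11:58199556-58207592) had 18.4, 83.2 and 19.0 CPM in compound hearts, 22.6, 23.1 and 25.2 in HRC variant hearts, 17.2, 22.9 and 15.4 in MYBPC3 deletion hearts and 31.2, 15.3 and 11.4 in nontransgenic hearts. Compound replicates 1 and 3 lay inside the range of the other groups. The difference of compound from nontransgenic hearts was 1.58 (SE 0.76), with an adjusted edgeR p of 0.81, and 0.48 without compound replicate 2.

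Iigp1 (chr18:60373621-60392634) had 74.3, 179.6 and 65.4 CPM in compound hearts, 64.1, 51.0 and 44.4 in HRC variant hearts, 62.7, 59.7 and 68.4 in MYBPC3 deletion hearts and 77.4, 69.8 and 37.2 in nontransgenic hearts. Here compound replicates 1 and 3 also lay above all HRC variant libraries, the only such case among the 36 genes, which 6.2% of all tested genes showed. Its differences were 1.08 (SE 0.50, adjusted edgeR p 0.787) from nontransgenic hearts and 1.00 (SE 0.38, adjusted edgeR p 0.75) from HRC variant hearts. Without compound replicate 2 they were 0.47 and 0.41, and without nontransgenic replicate 3 the difference from nontransgenic hearts was 0.38.

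Irgm1 (chr11:48865245-48871454) had 27.3, 57.1 and 29.0 CPM in compound hearts, 30.2, 25.5 and 31.1 in HRC variant hearts, 20.5, 26.8 and 26.6 in MYBPC3 deletion hearts and 35.3, 24.3 and 19.7 in nontransgenic hearts. Its compound libraries all lay above the MYBPC3 deletion libraries, the lowest by a narrow margin of 27.3 against 26.8 CPM. The compound difference from MYBPC3 deletion hearts was 0.74 (SE 0.34, adjusted edgeR p 0.862), and 0.33 without compound replicate 2. Over the 6 GTPases the median difference from nontransgenic hearts was 0.67 in compound hearts, 0.28 in HRC variant hearts and 0.05 in MYBPC3 deletion hearts. In compound replicate 2 the 3 Gbp genes reached 48.1 CPM for Gbp2, 29.7 CPM for Gbp3 and 46.1 CPM for Gbp7, the highest of the 12 libraries in each case. Chosen after these values were seen, 9 further genes of the same families (such as Irgm2 and Gbp5) were 1.4 to 3.5-fold above the median of the other libraries in compound replicate 2, and 8 of the 9 were highest there.

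In the same library, Cd274, the checkpoint ligand PD-L1, reached 33.3 CPM, against 16.1 CPM at most in the other 11 libraries. Irgm2, one of the 9 further genes, reached 106.5 CPM, against 47.0 CPM at most elsewhere. Both were picked after their values were seen. Other listed interferon-induced genes went either way. Tap1 and Nlrc5 also peaked there, at 38.2 and 11.4 CPM, against 29.4 and 8.42 CPM at most elsewhere. Psmb8 and Psmb10 did not, at 29.0 and 55.9 CPM, against up to 32.9 and 74.7 CPM elsewhere. Ifng itself had 0 counts in compound replicate 2, which allows up to 3 counts or 0.168 CPM, and 0 counts in 10 of the 12 libraries. It was read only in MYBPC3 deletion replicate 1 (5 counts) and nontransgenic replicate 2 (4 counts), so at this depth a difference in Ifng was not detectable.

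Of the secreted proteins, Lgals3bp had 80.4, 91.3 and 64.0 CPM in compound hearts, 103.6, 72.8 and 70.3 in HRC variant hearts, 73.1, 111.1 and 91.6 in MYBPC3 deletion hearts and 96, 77.7 and 64.7 in nontransgenic hearts. The groups overlapped throughout, and the differences from nontransgenic hearts were 0.13 (SE 0.25), 0.20 (SE 0.25) and 0.22 (SE 0.20) in compound, HRC variant and MYBPC3 deletion hearts. For Cxcl10 the fitted differences were 1.92 (SE 1.35), 1.88 (SE 1.35) and 1.73 (SE 1.04), on levels of 0.0553 to 1.29 CPM over all libraries.

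Compared with the single mutants, the compound hearts had medians near 0, and single libraries moved the one against MYBPC3 deletion hearts. Against MYBPC3 deletion hearts 25 of the 36 genes were higher by sign with a median of 0.07, and against HRC variant hearts 17 of 36 with a median of -0.02, beside 52.2% and 47.6% of all tested genes. The interaction had a median of -0.25, with 12 of 36 above 0 beside 48.4% of all tested genes, and 0.04 without nontransgenic replicate 3 or without MYBPC3 deletion replicate 3. Without MYBPC3 deletion replicate 3 the median against MYBPC3 deletion hearts was 0.70, with 35 of 36 above 0, and without nontransgenic replicate 3 it was -0.08, with 14 of 36. By edgeR 0 of the 36 passed an adjusted p of 0.05 in these 3 contrasts, as did 0% of all tested genes, and 2 genes in each had an unadjusted p under 0.05, against 5.73%, 6.3% and 8.54% of all tested genes. DESeq2 called 0 of the 36 against either single mutant and 0 of the 7 that had an adjusted p in the interaction, and 0.0433%, 0.325% and 0.361% of all tested genes. Without compound replicate 2 the medians were -0.04 against MYBPC3 deletion hearts, -0.22 against HRC variant hearts (7 of 36 above 0) and -0.36 for the interaction.

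Complete separation of groups was reached by few genes of the set. All compound libraries lay above all nontransgenic ones for 2 of the 36 genes (Ifit2 and Ifi44), against 8.79% of all tested genes, and below them for 0, against 10%. All HRC variant libraries lay above the nontransgenic ones for 4 genes (Stat2, Oas2, Ifit2 and Ifi44), 11.1% of the set against 4.18% of all tested genes, and below them for 0, against 3.76%. For MYBPC3 deletion against nontransgenic hearts 2 genes were all above (Parp9 and Cxcl10), against 4.9%, and 1 was all below (Trim25), against 5.5%. Compound libraries lay above the MYBPC3 deletion ones for Trim25 and Irgm1 (11.5% of all tested genes) and below them for Xaf1 (13.7%). No gene had all compound libraries above the 9 others, which 1.18% of all tested genes did, and for none did all nontransgenic libraries lie below the 9 others, against 0.513%. Against HRC variant libraries those of compound hearts lay above for Iigp1 and below for Oas2 and Ifi35 (6.22% of all tested genes).

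The signalling genes upstream of the set had medians near 0. Of 36 listed ligands, receptors, kinases and regulators 32 were tested, and their median difference from nontransgenic hearts was 0.03 in compound, -0.05 in HRC variant and 0.01 in MYBPC3 deletion hearts, with 17, 14 and 16 above 0. By edgeR 0 of the 32 passed in any of the 3, and 3, 3 and 1 had an unadjusted p under 0.05, which is 9.38%, 9.38% and 3.12% of the 32 against 6.36%, 6.23% and 8.16% of all tested genes. Among the genes with the lowest p in compound hearts were Ifngr1, a chain of the interferon gamma receptor (-0.44, SE 0.14), and the phosphatase Ptpn11 (-0.64, SE 0.21). In HRC variant hearts they were Ptpn11 (-0.62, SE 0.21), Tmem173, the adaptor STING (0.59, SE 0.23), and Socs1, a feedback inhibitor of the kinases (1.75, SE 0.70). In MYBPC3 deletion hearts they were Ptpn11 (-0.62, SE 0.17), the kinase Tyk2 (-0.30, SE 0.15) and the cytokine Il15 (0.20, SE 0.12). Without nontransgenic replicate 3 the differences of Socs1 and Tmem173 in HRC variant hearts were 0.94 and 0.21, while that of Ifngr1 in compound hearts was -0.54. Ptpn11 in compound hearts ran from -0.74 to -0.54 with any 1 library left out. Ptpn11 is one of 2 upstream genes that DESeq2 called, with an adjusted p of 0.0498 in MYBPC3 deletion hearts, and Il15 the other, at 0.49 (SE 0.12) and a DESeq2 adjusted p of 0.0443 for compound against HRC variant hearts.

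A further 54 tested interferon-induced genes outside the set were also mostly higher by sign. Their median difference from nontransgenic hearts was 0.24 in compound (43 above 0), 0.36 in HRC variant (45 above 0) and 0.16 in MYBPC3 deletion hearts (43 above 0). By edgeR 0 of them passed, and 8, 9 and 5 had an unadjusted p under 0.05. These are 14.8%, 16.7% and 9.26% of the 54, against 6.36%, 6.23% and 8.16% of all tested genes and 0%, 5.56% and 8.33% of the set. Their mean deviation in nontransgenic replicate 3 was -0.49, close to the -0.56 of the set, and in compound replicate 2 it was 0.35. Named by lowest p, Ifi203 (0.78, SE 0.26), the RNA-activated kinase Eif2ak2 (0.60, SE 0.21) and the chemokine Cxcl9 (1.37, SE 0.48) led in compound hearts. Ifi47 (1.5, SE 0.45), Nlrc5, an activator of the antigen-presentation genes (2.01, SE 0.64), and the immunoproteasome subunit Psmb8 (0.96, SE 0.36) led in HRC variant hearts. In MYBPC3 deletion hearts they were Znfx1, an RNA helicase (-0.53, SE 0.12), Ifi204 (1.04, SE 0.24) and Phf11d (0.71, SE 0.24). Without nontransgenic replicate 3 the compound differences of Ifi203, Eif2ak2 and Cxcl9 were 0.29, 0.43 and 0.63. In HRC variant hearts that of Nlrc5 was then 1.2, while that of Ifi47 was larger, at 2.02. Psmb8 ran from 0.75 to 1.08 there with any 1 library left out. In MYBPC3 deletion hearts Znfx1, Ifi204 and Phf11d were at -0.65, 0.82 and 0.47 without nontransgenic replicate 3. Znfx1 had 63.3, 62.7 and 58.4 CPM in compound hearts, 65.2, 64.6 and 64.3 in HRC variant hearts, 45.9, 38.4 and 50.7 in MYBPC3 deletion hearts and 72.1, 60.9 and 61.9 in nontransgenic hearts. Its 3 MYBPC3 deletion libraries were the lowest of the 12, as those of Trim25 were, and DESeq2 called it with an adjusted p of 0.0158 where edgeR gave 0.34.

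In the authors' deposited table of DESeq2 comparisons, 0 of the 36 genes had a q-value under 0.05 in any of the 6 pairs of groups. Of all genes with a q-value in the authors' deposited table, 2.43%, 0.0775% and 0.0945% passed for compound, HRC variant and MYBPC3 deletion against nontransgenic hearts, 4.24% and 0.389% for compound against MYBPC3 deletion and HRC variant hearts, and 0.283% for HRC variant against MYBPC3 deletion hearts. The lowest q-value there was 0.103, for Ifi27 between compound and MYBPC3 deletion hearts. For compound against nontransgenic hearts the lowest was 0.134, for Ifit2, and for HRC variant against nontransgenic hearts 0.239, for Oas2. The authors' deposited table has log2 fold changes above 0 for 29, 30 and 26 of the 36 genes in compound, HRC variant and MYBPC3 deletion hearts against nontransgenic hearts, with medians of 0.20, 0.25 and 0.13.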

How the data were processed

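The authors deposited 1 table of 12 mouse heart mRNA libraries, with an expected count (a read number estimated by a program, so not always whole) and a TPM value per gene and library, per the file headers. The deposited table also holds a log2 fold change and a DESeq2 q-value per comparison. GRCm38.p6 is the build, and Bowtie2, HISAT and DESeq2 the tools, that appear in the submitters' processing notes, with roles, versions, the counting tool and its use of strand not given in the sources used here. Of the deposited count values, 94.3% were whole.

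Expected counts were rounded, and edgeR 4.0.16 (with limma 3.58.1, in R 4.3.3) was used on them. The low-count filter with a minimum count of 10 kept 13849 genes and removed 3530, and totals of 15615189 to 20581196 per library set the depth. Libraries were scaled by TMM. A robust quasi-likelihood model with group and sex was fitted to all 12 libraries (7 residual degrees of freedom, common biological coefficient of variation 21.5%), and a gene counted as called where its Benjamini-Hochberg adjusted p over all tested genes was under 0.05. The 36 genes were read off this fit. The log2 values and CPM were computed here. Library deviations use log2 CPM with a prior count of 2.

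On simulated counts with known changes, 2-fold changes were recovered in 47%, 47% and 61%, and 4-fold changes in 86%, 85% and 98%, for compound, HRC variant and MYBPC3 deletion against nontransgenic hearts, among 13694, 13692 and 13707 genes. Of the unchanged genes 7, 9 and 10 were called. Changes were planted only in genes above a low mean count, with noise independent between genes and no sex effect. Genes that move together in a library were not simulated.

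Values per library are given for the 4 genes of the set with the lowest p in each comparison with nontransgenic hearts, the 2 lowest in each other contrast and the gene with the highest level per length in each role. Ifit2, Stat2, Ifi44, Znfx1, Cd274, Irgm2 and Ifng were added after their values were seen. The values of Tap1, Nlrc5, Psmb8 and Psmb10 in compound replicate 2 were added likewise. The set, its roles and the other lists were chosen with earlier results of these data known. Alternatives covered the sex term, DESeq2 1.42.0, scaling, the filter, the libraries in the fit, the replicate number as a block, and each library left out. Numbers did not pair the samples, since 5 of 18 correlations between same-numbered libraries were over 0.1 (range -0.24 to 0.316). Mx1, Mx2 and the table's 1 line without values were not analysed here, and 1 result on an upstream gene is not reported here.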

Additional observations from a re-analysis of the deposited data

How the results depend on the processing

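Across 23 alternatives 0 of the 36 genes were called in any contrast, and the lowest adjusted p of any of them, by edgeR or DESeq2, was 0.158. DESeq2 called 38 (compound), 25 (HRC variant) and 92 genes (MYBPC3 deletion) against nontransgenic hearts, 6 and 45 for compound against MYBPC3 deletion and HRC variant hearts, and 50 for the interaction, where edgeR called 0. With only the groups compared in the fit, edgeR called 15, 1 and 57 genes for compound against nontransgenic, MYBPC3 deletion against nontransgenic and compound against MYBPC3 deletion hearts. In these fits the sex term sets the compound hearts, all female, against 1 female library alone. That library is nontransgenic replicate 3 for the 15 genes and MYBPC3 deletion replicate 3 for the 57. These counts are thus not results of 3 libraries against 3. Leaving out 1 library in turn gave 0 to 3, 0 to 8 and 0 to 0 called genes for compound, HRC variant and MYBPC3 deletion against nontransgenic hearts, 0 to 0 and 0 to 13 for compound against MYBPC3 deletion and HRC variant hearts, and 0 to 5 for the interaction.

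The median log2 difference of the 36 genes moved more. Leaving out 1 library in turn gave -0.07 to 0.60, -0.03 to 0.70 and -0.06 to 0.34 for compound, HRC variant and MYBPC3 deletion against nontransgenic hearts, -0.08 to 0.70 and -0.22 to 0.05 for compound against MYBPC3 deletion and HRC variant hearts, and -0.47 to 0.04 for the interaction. The lowest values against nontransgenic hearts came without nontransgenic replicate 3, for the MYBPC3 deletion equally without MYBPC3 deletion replicate 3, the values 0.60 and 0.70 without MYBPC3 deletion replicate 3, and 0.34 without nontransgenic replicate 1. With only the groups compared, which with the sex term sets HRC variant hearts against nontransgenic replicate 3 alone, the HRC variant median was 0.70. In females only, with 1 nontransgenic and 1 MYBPC3 deletion library that are assumed to vary like the others, it was 0.70 for the HRC variant and 0.65 for the MYBPC3 deletion, and -0.77 for the interaction. Chosen after seeing the data, leaving out nontransgenic replicate 3 and compound replicate 2 together gave -0.25, -0.03 and -0.28 for compound against nontransgenic, HRC variant against nontransgenic and compound against MYBPC3 deletion hearts. Without the sex term the compound median was 0.20, and 0.06 or 0.00 without nontransgenic replicate 3 or compound replicate 2. The cause was not tested.

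With the replicate number as a block, which the pairing check does not support as a design, the medians were 0.15, 0.16, 0.15, -0.10, -0.05 and -0.26 in the order above, and 1 gene was called, for the interaction. The single genes were chosen by lowest p in the main fit, which makes a reversed sign unlikely. A count of reversals does not cover size, which single libraries moved as given above. Of 718 values of single genes under alternatives 1 reversed, that of Tyk2 in MYBPC3 deletion hearts (0.09 in females only). DESeq2 alone called Ptpn11 (-0.63) and Znfx1 (-0.54) there. With 3 libraries a group and 1 female nontransgenic heart, a sex effect and that library cannot be told apart within the nontransgenic group. The mean log2 deviation of the 36 genes was -0.56 in that library. In the MYBPC3 deletion group it was 0.14 in the female and -0.26 and 0.23 in the males. The part of sex in these values was not tested.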
